A study of Homo sapiens with 6 samples.

Results

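The 8 genes described here encode enzymes of the pentose phosphate pathway and of the step that follows it: PGLS and PGD of the oxidative branch, RPIA, RPE, TKT and TALDO1 of the non-oxidative branch, and PRPS1 and PRPS2, which make phosphoribosyl pyrophosphate (PRPP). They were taken by symbol from the 23026 genes of the deposited normalized table, and all 8 were among the 9697 genes whose mean normalised count over the 6 libraries was above 10 CPM. RPIA passed this filter only through shControl, where its mean was 20.6 CPM on the scale of the filter, against 5.82 in shDYRK1A. The set was chosen by the large difference of RPIA between the groups compared here, so the values of the members in this contrast are given as a description: no p is given for a member, and counts of members called stand beside the share of all genes with nothing read from them. The cells were T98G, a human glioblastoma line. A lentivirus carried either a control short hairpin (shControl) or a single hairpin directed at the kinase DYRK1A (shDYRK1A), and puromycin selected the infected cells. Both groups carried the vector and the selection, both were mixed in equal numbers with a fixed number of Drosophila Kc167 cells before RNA extraction, and polyadenylated RNA was sequenced from 3 libraries of each group, lettered 1A, 1B and 1C. The labels do not say whether the letters are separate infections, so the errors and p-values below measure the spread between these libraries, which may be technical.

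The pentose phosphate pathway branches from glycolysis at glucose 6-phosphate. Its oxidative branch yields NADPH and ribulose 5-phosphate. Ribose 5-phosphate isomerase, the product of RPIA, converts ribulose 5-phosphate into ribose 5-phosphate, and ribulose 5-phosphate epimerase, the product of RPE, converts it into xylulose 5-phosphate. Transketolase (TKT) and transaldolase (TALDO1) then exchange carbon units between these sugars and the intermediates of glycolysis. PRPP, made from ribose 5-phosphate, is the sugar donor for purine, pyrimidine and NAD synthesis. Proliferating and glioma cells are known to use the pathway for nucleotides and for NADPH, which keeps glutathione and thioredoxin reduced.

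RPIA lies on the plus strand of chromosome 2 at 88691644 to 88750935 (hg38), in 9 exons. The other members lie on chromosome 2 (RPE), 3 (TKT), 11 (TALDO1), 1 (PGD), 19 (PGLS) and X (PRPS1 and PRPS2). Promoter sequences, 250 bases before to 50 bases after the start of each gene, were found for all 8 members in RefSeq (GRCh38.p14), and 3 are shown: that of RPIA, the member with the lowest fold change, that of PGLS, the member with the highest, and that of PRPS2, the one member with a match to part of the palindrome TCTCGCGAGA, which DYRK1A is known to bind at promoters. Capitals mark CCAAT on either strand in RPIA (as ATTGG) and the first 7 letters of the palindrome, TCTCGCG, in PRPS2. The PGLS sequence holds none of the motifs searched. The regions are chr2:88691423-88691722 (plus strand), chr19:17511399-17511698 (plus strand) and chrX:12791162-12791461 (plus strand).
RPIA promoter: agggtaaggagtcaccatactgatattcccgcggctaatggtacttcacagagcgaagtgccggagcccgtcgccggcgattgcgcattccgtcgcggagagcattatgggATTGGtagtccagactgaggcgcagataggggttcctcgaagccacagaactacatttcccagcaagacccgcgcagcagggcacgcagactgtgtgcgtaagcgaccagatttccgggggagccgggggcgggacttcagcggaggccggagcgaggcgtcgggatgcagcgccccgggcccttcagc
PGLS promoter: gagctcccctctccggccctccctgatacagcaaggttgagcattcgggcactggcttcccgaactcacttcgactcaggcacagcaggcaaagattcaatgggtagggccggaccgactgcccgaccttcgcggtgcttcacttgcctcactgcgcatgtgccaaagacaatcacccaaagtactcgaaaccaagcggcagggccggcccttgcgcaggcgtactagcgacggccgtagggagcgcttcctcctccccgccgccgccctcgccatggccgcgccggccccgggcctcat
PRPS2 promoter: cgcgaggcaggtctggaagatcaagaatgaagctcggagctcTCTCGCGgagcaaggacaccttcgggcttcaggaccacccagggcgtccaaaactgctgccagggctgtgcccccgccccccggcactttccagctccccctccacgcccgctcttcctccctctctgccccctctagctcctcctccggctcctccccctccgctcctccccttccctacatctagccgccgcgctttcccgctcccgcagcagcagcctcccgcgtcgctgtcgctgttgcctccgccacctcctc

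Each motif was searched on both strands. The full palindrome TCTCGCGAGA was in 0 of the 8 member promoters, and 0.424% of 35116 RefSeq promoters hold it. Its first part, TCTCGCG, which lies within the palindrome, was in PRPS2 alone, 208 bases before the start, against 3.49% of all promoters. CCAAT was in 6 members (RPIA, RPE, TKT, TALDO1, PGD and PRPS1) against 34.6% of all promoters, and in RPIA it began 139 bases before the start. The antioxidant response core, TGACNNNGC, was in RPE and PGD, against 13.3% of promoters, and the E-box CACGTG was in 0 members, against 7.26%. A match is a description of these letters and not a binding site.

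The 3′ UTR of RPIA, 857 bases in its annotated transcript RPIA-201, is shown at 3 sites because it holds TGAAGTA 3 times, in capitals below. These letters were taken from an earlier search of the fold changes of these same libraries, so they are a description and support nothing about RPIA or about other genes. The sites lie on the plus strand (GRCh38) at chr2:88750225-88750251, chr2:88750306-88750332 and chr2:88750772-88750798.
RPIA site at UTR base 157: tccagtcttaTGAAGTAttgttattaa
RPIA site at UTR base 238: gttttttaaaTGAAGTAgaacttgagt
RPIA site at UTR base 704: ctgtgaaatgTGAAGTActttgttttt

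Of 9053 genes with a scanned 3′ UTR, 12.6% held TGAAGTA at least once and 44, or 0.486%, held it 3 times or more. None of the other 7 members held it. Their 3′ UTRs ran from 99 bases in TKT to 1785 in RPE, so most offered less sequence than that of RPIA. The median log2 fold change was −0.39 over the 7915 genes without the letters, −0.56 over 922 genes with 1 copy, −0.61 over 172 genes with 2 copies and −0.65 over the 43 genes other than RPIA with 3 or more. The median 3′ UTR length rose with the number of copies as well, from 935 bases with none to 8207 bases with 3 or more, and its part in these medians was not tested. Since the letters were picked on these fold changes, the order of the medians restates that choice and is no result.

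The libraries held 33708297 to 42154438 reads counted in human genes. The normalised read count is the raw count divided by one constant per library, which the study derived from the Drosophila reads. Human counts per unit of that constant were 40116360 to 48090252 in shControl and 31230657 to 36658657 in shDYRK1A. On this spike-in scale the median log2 fold change of all genes was −0.40, which every member fold change on the same scale includes. Fewer human cells and less RNA per cell cannot be told apart in such libraries. Folds were therefore also computed after TMM, a scaling that sets the bulk of human genes equal, under which the median was 0.00. DYRK1A itself had normalised read counts of 2227, 2234 and 1895 in shControl against 1482, 1056 and 1285 in shDYRK1A, a log2 fold change of −0.73 (SE 0.15), and −0.34 after TMM. The hairpin left a mean of 60.2% of the DYRK1A transcript on the spike-in scale. VIM, CD44, EGFR and FN1 were above 10 CPM in every library, while the glial markers S100B, SOX2 and GFAP were at or near 0, and NES and OLIG2 were at 1.29 to 2.02 and 1.06 to 1.87 CPM. Of these markers, VIM was at 1887 to 1975 CPM in shControl and 1530 to 1630 in shDYRK1A, FN1 at 823 to 923 and 613 to 738, and CHI3L1, the other way, at 3.54 to 4.78 and 13.1 to 13.8, and the part of these shifts in the results was not tested. Of 11 markers of neurons, blood, vessel, epithelium and liver, 9 were under 1 CPM in every library, and their sum was 12.4 to 13.2 CPM in shControl and 7.77 to 9.64 in shDYRK1A, mostly SNAP25, whose part in the results was not tested. Library 1B of shDYRK1A stood apart, with the lowest depth, 15.6% unmapped reads and the largest count differences from its replicates.

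RPIA had the lowest level of the 8 members and the largest difference between the groups. In the order 1A, 1B and 1C, here and below, its normalised read count was 796, 904 and 722 in shControl, while shDYRK1A had 244, 219 and 224. The lowest shControl library was above the highest shDYRK1A library. The means were 808 ± 91.5 (SD, n = 3) and 229 ± 13.3 (SD, n = 3), so that 28.3% of the shControl level remained, a log2 fold change of −1.82 (SE 0.17). Of the 9697 genes, 3 had a lower fold change. The raw counts behind these values were 654, 797 and 742 against 258, 236 and 272. As a share of the human counts of its own library (CPM), which does not use the Drosophila constant, RPIA was at 16.6, 18.9 and 18.0 CPM in shControl and at 6.65, 7.0 and 6.73 in shDYRK1A, and the groups again did not overlap. After TMM the log2 fold change was −1.41 (SE 0.08). Leaving out each library in turn gave −1.89 to −1.73 on the spike-in scale, and −1.79 without shDYRK1A 1B, the library that stood apart. No RPIA exon base is shared with another annotated gene, and no 100-base window of its transcript occurs in another gene.

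**Figure D1:**
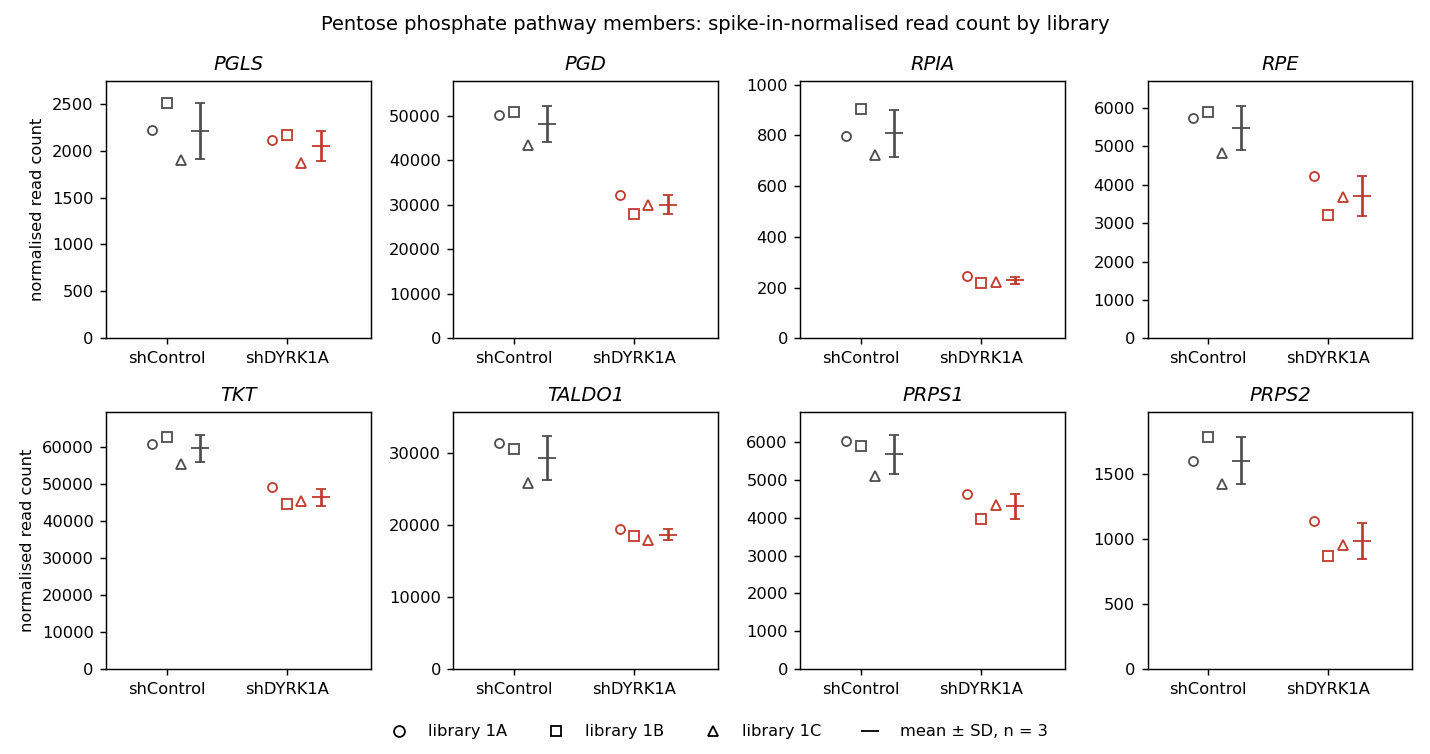
Spike-in-normalised read count of each member in each library (linear axes from 0; points, libraries 1A to 1C of shControl in grey and shDYRK1A in red; bars, mean ± SD, n = 3). RPIA was at 722 to 904 in shControl and at 219 to 244 in shDYRK1A, while the groups overlapped for PGLS.

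RPE, the epimerase that acts on the same substrate, had normalised read counts of 5740, 5886 and 4820 in the shControl libraries and 4233, 3201 and 3679 in the shDYRK1A libraries. The groups did not overlap, and 67.6% of the shControl level remained, a log2 fold change of −0.57 (SE 0.14) on the spike-in scale and −0.16 after TMM. On the opposite strand, 23.8% of the RPE exon bases are shared with KANSL1L, and 88 of 2470 windows of 100 bases of the RPE transcript also occur in the intronless copy RPEL1. The library kit keeps strand, but the strand setting of the counting is not given in the sources used here. RPEL1 itself had 5 to 13 reads in each library.

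TKT, the transketolase, stayed closest to the bulk of genes in this branch. Its normalised read count was 60717, 62762 and 55475 in shControl against 49131, 44762 and 45431 in shDYRK1A. The groups did not overlap on this scale, with a log2 fold change of −0.36 (SE 0.13), but they overlapped in CPM, and the value after TMM was 0.04. The transketolase-like genes TKTL1 and TKTL2 had at most 1 read in any library. TALDO1, the transaldolase, had normalised read counts of 31392, 30556 and 25761 in shControl against 19437, 18479 and 17899 in shDYRK1A. Its groups did not overlap on either scale, and its log2 fold change was −0.65 (SE 0.13), or −0.24 after TMM. SHPK, which makes sedoheptulose 7-phosphate, was under the filter, with raw counts of 292, 317 and 316 against 285, 260 and 308.

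A ratio between members within a library uses no scaling constant. Counted per kb of annotated exon, RPIA relative to TKT was 0.0675, 0.0741 and 0.0670 in shControl and 0.0255, 0.0251 and 0.0254 in shDYRK1A. All shDYRK1A libraries were below all shControl libraries, and shDYRK1A 1B was close to its replicates. The ratio of RPIA to RPE had a mean of 0.281 ± 0.0148 (SD, n = 3) with the control hairpin, against 0.119 ± 0.0104 (SD, n = 3) with the hairpin to DYRK1A. TALDO1 relative to TKT was 1.55 ± 0.0836 (SD, n = 3) and 1.27 ± 0.0330 (SD, n = 3), and this difference too was larger than the spread between libraries. The size of each ratio depends on the exon length used, but its change between the groups does not.

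**Figure D2:**
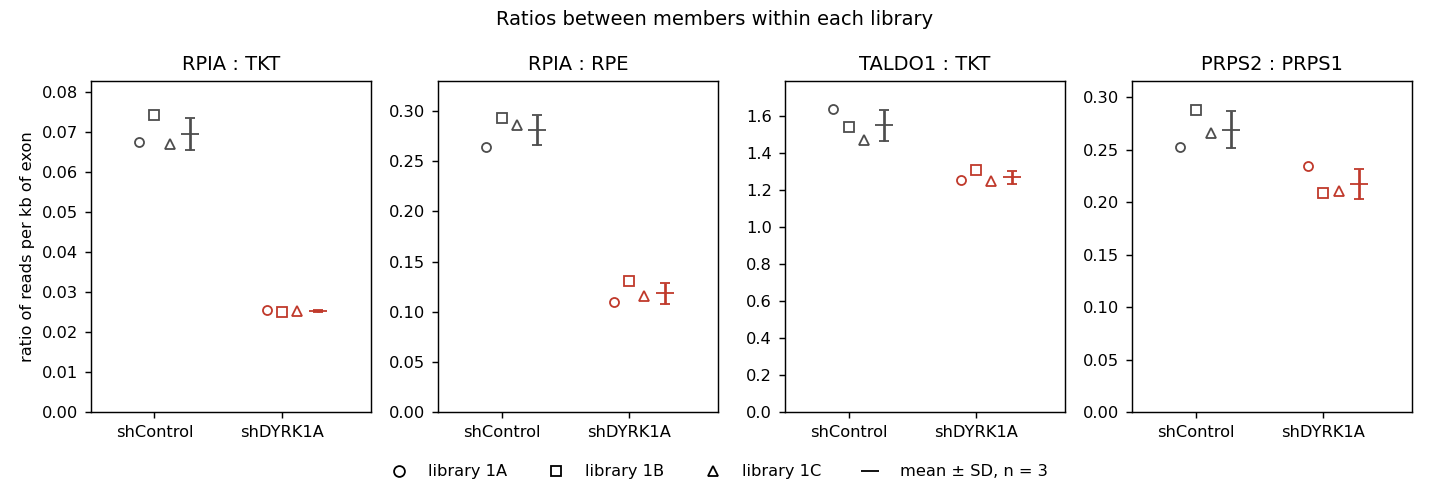
Ratios of reads per kb of exon between members within each library (linear axes from 0; points, libraries; bars, mean ± SD, n = 3). RPIA relative to TKT was near 0.07 in shControl and 0.0251 to 0.0255 in shDYRK1A; the ratio of PRPS2 to PRPS1 moved less.

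In the oxidative branch the 2 members differed. PGD, the 6-phosphogluconate dehydrogenase that yields NADPH and ribulose 5-phosphate, had normalised read counts of 50272, 50933 and 43512 in shControl against 32212, 27948 and 30051 in shDYRK1A. The groups did not overlap on either scale, and the log2 fold change was −0.68 (SE 0.13), or −0.28 after TMM. PGLS, the lactonase one step before, had 2214, 2502 and 1904 in shControl against 2113, 2162 and 1866 in shDYRK1A. These groups overlapped, with a log2 fold change of −0.11 (SE 0.14). In CPM the order turned: PGLS was at 46.0 to 52.3 in shControl and at 56.0 to 69.2 in shDYRK1A, with no overlap, and the value after TMM was 0.30. Relative to PGD, per kb of exon within a library, PGLS was at 0.0476 ± 0.0031 (SD, n = 3) in shControl, and at 0.0712 ± 0.0083 (SD, n = 3) with the hairpin to DYRK1A, higher in all 3 shDYRK1A libraries than in any shControl library. A long non-coding RNA on the opposite strand shares 9.17% of the PGLS exon bases.

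H6PD, which acts in the oxidative steps of the endoplasmic reticulum and is not a member, had a log2 fold change of −0.11 (SE 0.14, adjusted p = 0.50 in edgeR's quasi-likelihood test with Benjamini-Hochberg adjustment over all genes), and 0.29 after TMM. Among the genes that feed ribose into the pathway, PGM2 (phosphopentomutase) had −0.65 (edgeR adjusted p = 8.1e-05), DERA (deoxyribose-phosphate aldolase) −0.38 (edgeR adjusted p = 0.016) and PGM1 −0.27 (edgeR adjusted p = 0.061). The median of these 3 genes was −0.38, or 0.02 after TMM. RBKS, the ribokinase, was under the filter, with 122 to 155 reads a library.

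PRPS1 and PRPS2 encode the 2 PRPP synthetases expressed in these cells. PRPS1 had normalised read counts of 6016, 5902 and 5085 in shControl against 4618, 3958 and 4328 in shDYRK1A, a log2 fold change of −0.40 (SE 0.14), which is that of the median gene. After TMM the value was 0.01, and in CPM the groups overlapped. PRPS2 had 1598, 1786 and 1424 in shControl against 1137, 867 and 957 in shDYRK1A, a log2 fold change of −0.70 (SE 0.15), or −0.30 after TMM, with no overlap on either scale. PRPS2 relative to PRPS1, per kb of exon, was 0.253, 0.288 and 0.266 in shControl and 0.234, 0.208 and 0.210 in shDYRK1A. The groups did not overlap, although shControl 1A and shDYRK1A 1A lay close. The associated proteins PRPSAP1 and PRPSAP2, which bind and restrain the synthetases, had −0.21 (edgeR adjusted p = 0.19) and −0.09 (edgeR adjusted p = 0.58). Both were above 0 after TMM, at 0.20 and 0.31. The testis-type PRPS1L1 had at most 5 reads in any library.

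Ranked by normalised read count per kb of annotated exon, the members stood in one order in all 6 libraries: PGD, TALDO1, TKT, PRPS1, RPE, PGLS, PRPS2 and RPIA. The shControl means per kb ran from 16264 ± 1385 (SD, n = 3) for PGD to 437 ± 49.5 (SD, n = 3) for RPIA. PGLS, at 775 ± 105, and PRPS2, at 581 ± 65.6, were the closest neighbours above RPIA. In shDYRK1A RPIA was at 124 ± 7.18 and PRPS2 at 358 ± 49.8. The upper ranks depended on the length used. Annotated exon bases of TKT sum to 9507, but its coding transcript TKT-202 has 2075, and per kb of one transcript TKT was first, at 28748 ± 1812 in shControl, above PGD at 25591 ± 2179 and TALDO1 at 21721 ± 2257. Per kb of transcript, PGLS (2147 ± 291) and RPE (2134 ± 225) did not differ beyond their spread in shControl. RPIA was last by either length in both groups.

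Across the members, 1 of 8, RPIA, was called lower, where a call asks for a log2 fold change past 0.7 besides an adjusted p under 0.05, and 14.3% of all 9697 genes were. None was called higher, against 0.278% of all genes, since all 8 fold changes were below 0. The shControl and shDYRK1A libraries did not overlap, with shDYRK1A lower, for 7 of 8 members, against 63.6% of all genes. These member counts come from the contrast by which RPIA was selected, and nothing is read from them. PRPS2, PGD and TALDO1 lay just short of the fold threshold, and the count was 4 without shControl 1C, 3 without shDYRK1A 1A and 2 without shControl 1A, where 21.6%, 21.5% and 11.3% of all genes were called lower.

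The pathway lists held 65 further genes, and 51 of them passed the filter. Of these, 15 were called lower and 0 higher (at an adjusted p alone, 43 lower and 0 higher), against 14.3% and 0.278% of all genes, and 63.4% lower at an adjusted p alone. Their median log2 fold change was −0.58, against −0.40 for all genes. All 51 fold changes were below 0, so none was higher at any p, and DESeq2 also called 15 lower and 0 higher. Without shDYRK1A 1B, 14 were called lower, against 9.36% of all genes. By the same rule after TMM, 2 were called lower, ADSS (−0.84) and TXNRD1 (−0.74), against 1.93% of all genes. After TMM, 27 of the 51 were lower and 6 higher at an adjusted p below 0.05, against 28.6% and 27.3% of all genes, and the median was −0.18. The lists were drawn up with earlier results of these libraries known.

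**Figure D3:**
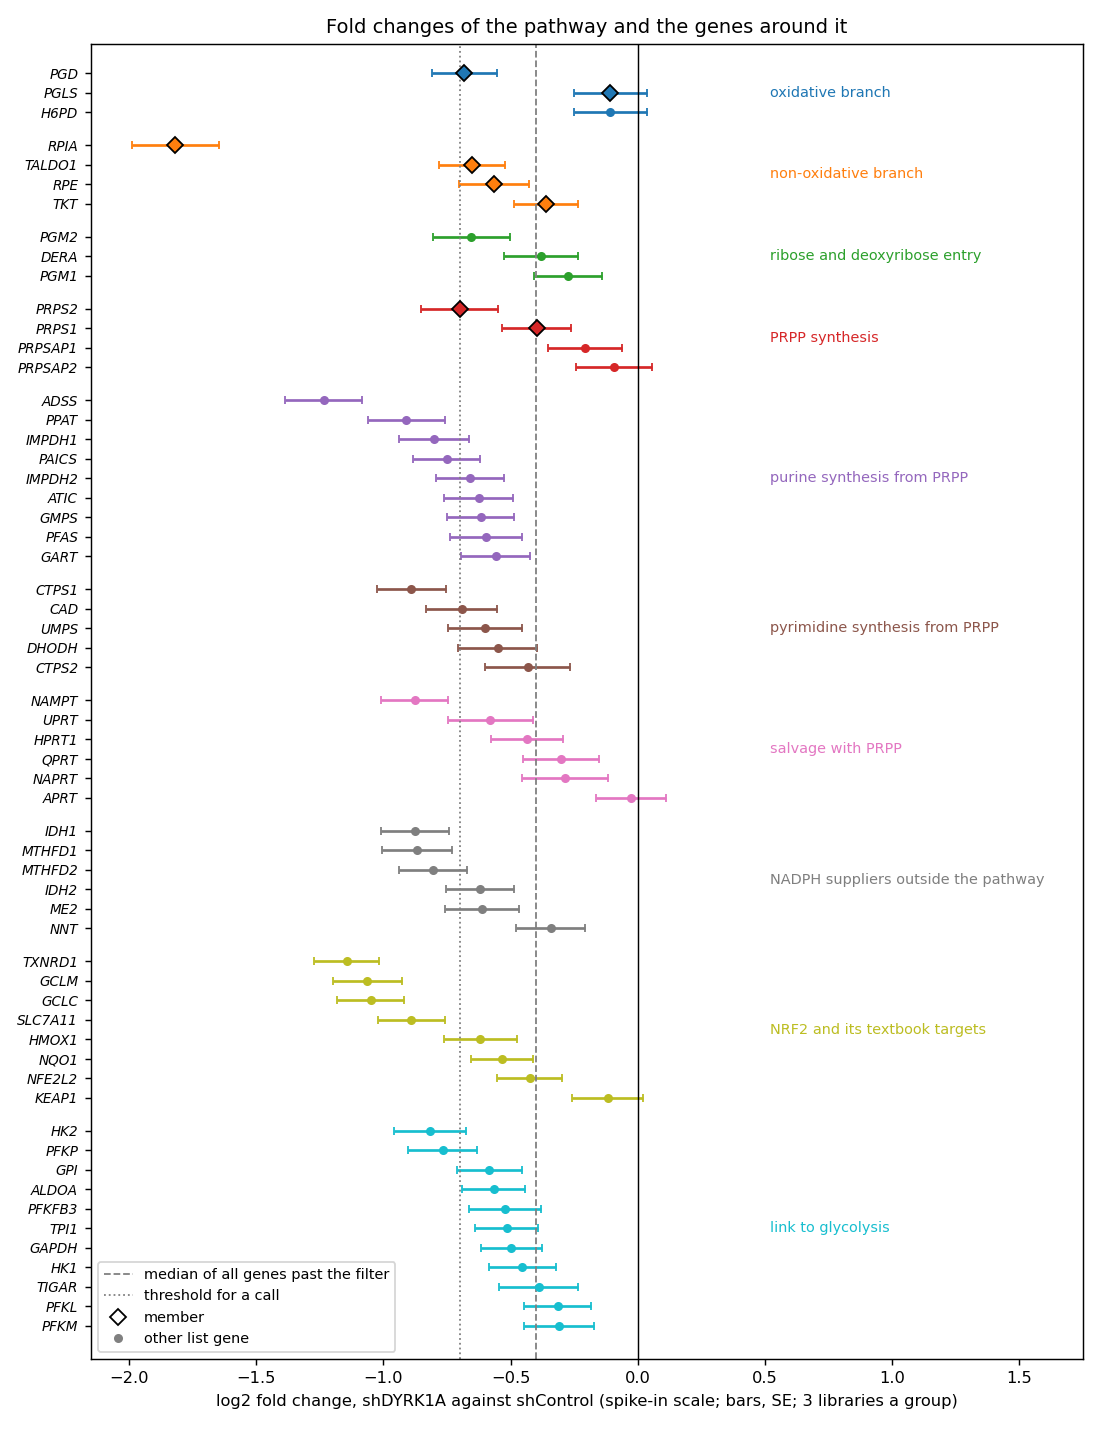
Log2 fold change, shDYRK1A against shControl, on the spike-in scale for members (diamonds) and the other list genes past the filter (circles), by list (bars, SE; 3 libraries a group; dashed line, median of all genes; dotted line, threshold for a call). RPIA at −1.82 is left of all other genes drawn, the lowest of which is ADSS at −1.24.

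Purine synthesis from PRPP had a lower median than all genes. All 9 that passed the filter were lower at an adjusted p below 0.05, against 63.4% of all genes. Of these 9, 4 were called lower, against 14.3% of all genes, and 0 were higher. Their median was −0.66, or −0.25 after TMM. All 9 were lower after TMM as well at an adjusted p below 0.05, against 28.6% of all genes. PPAT, the enzyme that commits PRPP to purines, had a log2 fold change of −0.91 (SE 0.15, edgeR adjusted p = 3.8e-08), PAICS −0.75, and IMPDH1, at the entry to guanine nucleotides, −0.80. ADSS, which starts the conversion of IMP to AMP, had the lowest value, −1.24 (SE 0.15), and GART the highest, −0.56 (edgeR adjusted p = 1.3e-04). In pyrimidine synthesis, 5 of 5 genes were lower at an adjusted p below 0.05, against 63.4% of all genes. Of the 5, 1 was called, against 14.3% of all genes. It was CTPS1, which makes CTP, at −0.89 (SE 0.14, edgeR adjusted p = 1.5e-09). CTPS2 was the highest there, at −0.43. The median was −0.60, or −0.19 after TMM. After TMM, 3 of the 5 were lower and 0 higher at an adjusted p below 0.05, against 28.6% and 27.3% of all genes. In the salvage routes that use PRPP, 3 of 6 genes were lower at an adjusted p below 0.05, against 63.4% of all genes, and the median of −0.37, or 0.04 after TMM, was not below that of all genes. Of these 6, 1 was lower and 1 higher after TMM at an adjusted p below 0.05, against 28.6% and 27.3% of all genes. NAMPT, which makes the NAD precursor nicotinamide mononucleotide, was called at −0.88 (SE 0.13), while APRT, the adenine salvage enzyme, had −0.03 (SE 0.14, edgeR adjusted p = 0.87) and 0.38 after TMM. ADSL and ADSSL1 were under the filter.

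The genes listed as other suppliers of NADPH, among them ME2 and MTHFD2, which also use NAD, had a lower median than all genes as well. All 6 that passed the filter were lower at an adjusted p below 0.05, against 63.4% of all genes. Their median was −0.71, or −0.31 after TMM, and 3 were called, against 14.3% of all genes. The 3 were IDH1, the cytosolic isocitrate dehydrogenase, at −0.88 (SE 0.13), and the folate enzymes MTHFD1, at −0.87 (SE 0.14), and MTHFD2, at −0.80 (SE 0.13). NNT was the highest, at −0.34. Of the 6, 4 were lower and 0 higher after TMM at an adjusted p below 0.05, against 28.6% and 27.3% of all genes. ME1, ME3, ALDH1L1 and ALDH1L2 were under the filter. The next list held NRF2, its inhibitor KEAP1 and genes known as NRF2 targets. Of these, 7 of 8 past the filter were lower at an adjusted p below 0.05, and 4 were called.  The shares of all genes were again 63.4% and 14.3%. The 4 called genes follow. These were GCLC and GCLM, the subunits of the enzyme that starts glutathione synthesis, at −1.05 (SE 0.13) and −1.06 (SE 0.14), TXNRD1, the thioredoxin reductase, at −1.14 (SE 0.13), and SLC7A11, the cystine importer, at −0.89 (SE 0.13). The NRF2 gene NFE2L2 itself had −0.43 (edgeR adjusted p = 0.0023), close to the median gene, and KEAP1, its inhibitor, −0.12 (edgeR adjusted p = 0.44), or 0.29 after TMM. The list median was −0.75, or −0.35 after TMM. Of its 8 genes past the filter, 5 were lower and 1, KEAP1, higher after TMM at an adjusted p below 0.05. The shares of all genes were 28.6% and 27.3%. The other targets past the filter, NQO1 and HMOX1, were not called, at −0.53 and −0.62, or −0.13 and −0.22 after TMM. SRXN1 was under the filter, with 32, 51 and 47 reads against 16, 18 and 34. Pathway members known as NRF2 targets were not put on this list, and the values of all members are given above.

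Among the listed genes that link to glycolysis, from which the pathway branches, 11 passed the filter. All 11 were lower at an adjusted p below 0.05, against 63.4% of all genes, and 2 were called, against 14.3%. These were HK2, a hexokinase that makes glucose 6-phosphate, at −0.82 (SE 0.14, edgeR adjusted p = 9.7e-08), and the platelet-type phosphofructokinase PFKP at −0.77 (SE 0.14). PFKM, the muscle type, was the highest, at −0.31. TIGAR, which diverts sugar phosphates toward the pentose phosphate pathway, had −0.39 (edgeR adjusted p = 0.022), or 0.02 after TMM. The median was −0.52, or −0.11 after TMM, and FBP1 was under the filter. After TMM, 4 of the 11 were lower and 0 higher at an adjusted p below 0.05, against 28.6% and 27.3% of all genes.

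The genes whose profile was most like that of RPIA were found by the root mean square difference, over the 6 libraries, between log2(normalised read count + 1) of each gene after its own mean was taken off. The nearest was CHAC1, a glutathione-degrading enzyme of the stress response, at 0.068. It was followed by TSN, an RNA- and DNA-binding protein, at 0.087, the clock gene PER3 at 0.098, the integrin subunit ITGB1 at 0.099 and the collagen COL5A2 at 0.10. The same 5 genes were nearest on TMM-scaled counts, and 3 of them were among the nearest 5 on CPM. CHAC1 had normalised read counts of 851, 1051 and 838 in shControl against 255, 247 and 268 in shDYRK1A, and a log2 fold change of −1.83 (SE 0.17). ITGB1 had 23218, 22735 and 19456 against 6400, 5233 and 6398, a log2 fold change of −1.86 (SE 0.14). With 2 groups of libraries this likeness mostly restates a like fold change, and it is given as a description. TSN held 2 copies of TGAAGTA, COL5A2 held 1, and CHAC1, PER3 and ITGB1 did not hold it in their scanned 3′ UTR.

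**Figure D4:**
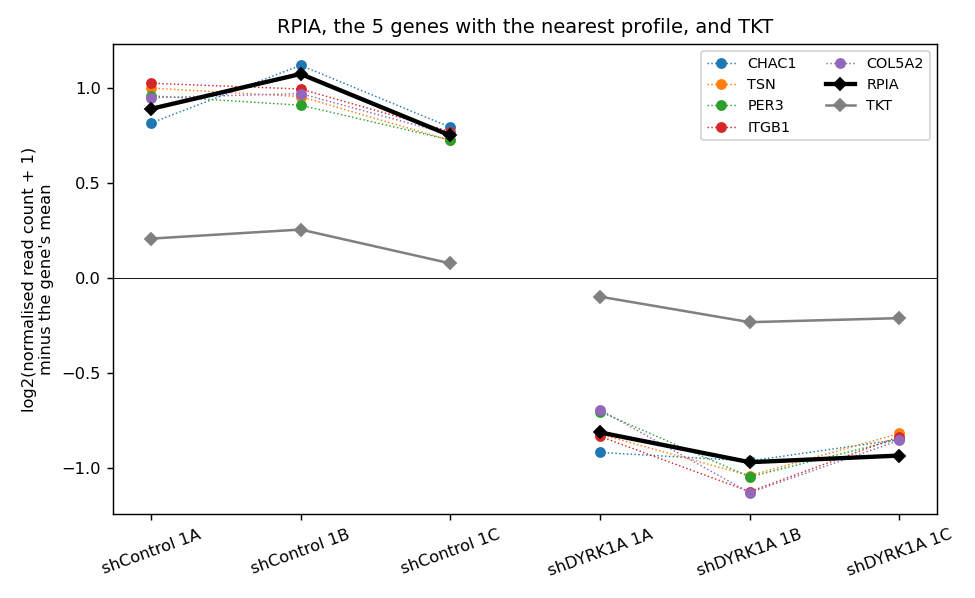
Log2(normalised read count + 1) minus the gene's mean in each library for RPIA (black), the 5 genes with the nearest profile (colours) and TKT (grey). Lines join the libraries of a group only to guide the eye; RPIA and its nearest genes lie between 0.7 and 1.2 above 0 in shControl and as far below 0 in shDYRK1A.

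The neighbourhood of RPIA on chromosome 2 gave little to compare. Within 500 kb of the gene, 52 other genes are annotated, 44 of them had no read in any library, and 1 passed the filter. This was EIF2AK3, an endoplasmic reticulum stress kinase, whose nearest end lies 64.1 kb from RPIA. Its normalised read counts were 1256, 1214 and 1006 in shControl against 885, 714 and 890 in shDYRK1A, and its log2 fold change was −0.48 (SE 0.15, edgeR adjusted p = 0.0041), or −0.08 after TMM.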

How the data were processed

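Reads were counted per gene by the authors, and the raw counts were deposited for each library. The deposited normalized table holds a signal, each raw count divided by one constant per library that the authors derived from Drosophila reads. The constants were recovered here as count over signal (0.821 to 1.21). The submitters' processing notes name STAR and DESeq2, with the builds hg38 and dm3. Read classes assigned to no gene took 18.9 to 25.0% of the reads of a library and were left out, and a table of the authors' own fold changes and p-values was not used.

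With these constants as offsets, edgeR 4.0.16 in R 4.3.3 fitted a robust quasi-likelihood model to the 9697 genes with a mean normalised count above 10 CPM, with Benjamini-Hochberg adjustment. A call asked for an adjusted p under 0.05 and a log2 fold change past 0.7. The SE is the fold change over the square root of the F statistic. The fit was tested on data simulated with the same constants, which cannot show an error in those constants. The spread of the constants is shared by all genes, so the p-values of different genes are not independent. TMM and median-of-ratios scaling, DESeq2 1.42.0, other filters, other thresholds, a replicate block and each library left out were tried.

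Exon lengths, 3′ UTRs and neighbours came from GENCODE release 29, whose coordinates were the same as those of the files for 95.8% of genes, and promoters from RefSeq. 3′ UTRs of one transcript a gene were scanned. The members and lists were chosen with earlier results of these data known. Named were the members, DYRK1A, the called, lowest and highest genes of each list, the genes of the pathway's own lists, the 5 nearest profiles and expressed neighbours of RPIA. NFE2L2, TIGAR, SRXN1, NQO1, HMOX1 and ME2 were named after their values were seen. One gene of these lists is not reported here.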

Additional observations from a re-analysis of the deposited data

How the results depend on the processing

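RPIA was chosen by its fold change in these libraries, so its values under the alternatives are a description. They ran from −1.89 to −1.73 with each library left out, −1.41 after TMM and −1.41 with median-of-ratios size factors. Those scalings set the median gene near 0 and turned the sign of several genes, given here after TMM and then after median-of-ratios: TKT 0.044 and 0.047, PGLS 0.30 and 0.31, PRPS1 0.0066 and 0.0097, H6PD 0.29 and 0.30, PGM1 0.13 and 0.14, DERA 0.019 and 0.022, PRPSAP1 0.20 and 0.20, PRPSAP2 0.31 and 0.32, APRT 0.38 and 0.39, NNT 0.057 and 0.060, KEAP1 0.29 and 0.29, and PFKM 0.093 and 0.096. APRT ranged from −0.098 to 0.020 with each library left out. The 15 list genes called lower became 2 after TMM and 2 with median-of-ratios, 43 with an adjusted p alone and 4 with a log2 fold change past 1. Members called lower were 7 with an adjusted p alone, against 63.4% of all genes. With each library left out they were 1 to 4, against 9.36% to 21.6% of all genes. Of those 7, TKT missed the adjusted p without shControl 1B, shDYRK1A 1B or shDYRK1A 1C, and PRPS1 without shControl 1A, shControl 1B or shDYRK1A 1C. Over all genes, 1386 were called lower and 27 higher. These counts became 187 and 121 after TMM, 184 and 125 with median-of-ratios, 2492 and 229 with filterByExpr, 2468 and 224 with no filter beyond 1 count, 6145 and 105 with an adjusted p alone, and 305 and 9 with a log2 fold change past 1. With each library left out they ranged from 908 (without shDYRK1A 1B) to 2093 (without shControl 1C) lower and from 16 to 32 higher. DERA, CTPS2, NNT and PFKM each lost their adjusted p below 0.05 without shControl 1A, shControl 1B, shDYRK1A 1B or shDYRK1A 1C.

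Libraries with the same letter deviated together with correlations of 0.15 (1A), 0.07 (1B) and 0.13 (1C), and each correlated best with its own letter, but no source says that a letter marks a shared culture or day, so the letter was not used as a pairing. With the letter as a replicate block, RPIA had −1.81. In that fit 2 of 8 members and 15 of 51 list genes were called lower, against 14.4% of all genes. The added member was PRPS2, at −0.702 with the block and −0.699 without it. Depth limits the genes under the filter, such as RPEL1, TKTL1 and PRPS1L1, for which no change could be read.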
